A study of Mus musculus with 2 samples.

Results

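The Notch pathway genes are 36 genes named for their roles in Notch signalling, and they were described here in the gonad-mesonephros complex, the embryonic gonad with its attached mesonephros, of XX mouse embryos. Members were found as probe sets annotated with exactly 1 gene symbol equal to a listed name, and the rule uses no measured value, although the list was drawn up with earlier results of these data known. Of the 36 genes, 35 had such a probe set, 69 probe sets in all out of 34945 probe sets with 1 symbol on the array. Maml3 had none, so no value is given for it. Of the 35 genes, 31 were above a floor signal of 24.0, the median of all values, on at least 1 array, among 12300 of 18193 genes in all. Dlk2, Hes5, Hes7 and Maml2 stayed under the floor on both arrays.

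One array carried total RNA of wild-type XX complexes and the other total RNA of XX complexes homozygous for the Gata4ki allele (Gata4ki/ki), both at E12.5 (embryonic day) and each from 6 pairs of complexes. The Gata4ki allele is a knock-in change of GATA4, a transcription factor of somatic gonad cells, that weakens its binding to FOG cofactors such as FOG2. It alters the protein in every cell that makes GATA4. The strain (C57Bl/6) was stated for the mutant only. The submitters' design text speaks of 6 control and 6 mutant samples, and the value table holds 1 array per group. With 1 array per group there is no replicate error and no test, and each ratio describes these 2 arrays. Gata4 itself gave 241 and 286 on one probe set and 49.2 and 34.6 on the other, which does not check the labels because the allele changes the protein. The gonadal genes Wt1, Nr5a1 and Lhx9 and the mesonephric genes Pax8 and Cdh16 were above the floor on both arrays.

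Notch receptors are single-pass membrane proteins that are cut when a ligand on a neighbouring cell pulls on them. A metalloprotease and then the gamma-secretase complex release the intracellular domain, which enters the nucleus and joins the DNA-binding protein RBPJ and a Mastermind coactivator to switch on genes of the HES and HEY families. In the fetal gonad the pathway is known for keeping somatic precursor cells, including those of steroid-producing cells, from differentiating. It also acts in vessels and in nephron formation, and blood vessels and mesonephric tubules lie in the same dissected tissue.

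The Notch genes had ratios on both sides of 0, and the 3 members at least 1.5-fold apart were all lower in the mutant. Dtx3, an E3 ubiquitin ligase of the Deltex family, had a signal of 217 in wild type and 115 in Gata4ki/ki, 1.89-fold lower. Hey2, a HEY-family repressor, and Dll3, a divergent Delta-like ligand that acts mainly as an inhibitor, were at least 1.74-fold and at least 1.53-fold lower. These are bounds, since the mutant signal lay under the floor and was set to it. At this floor no member reached 1.5-fold higher and none 2-fold in either direction. The count of 3 became 5 with a floor at the 40th percentile, where Dlk2 and Dll4 were added as higher in the mutant, so that 2 were higher and 3 lower. It was 1, Dtx3, with a floor at the 60th or with a pseudocount of 32. At least 1.5-fold apart were 9.68% of the measured members, beside 6.65% of all measured genes. In the lower direction alone the background was 3.11%, in the higher 3.54%, and at 2-fold in either direction it was 1.38%. The median log2 ratio of mutant over wild type was 0.03 over the 31 members and 0.01 over all measured genes. Of the members, 16 had a ratio above 0 and 15 below.

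**Figure D1:**
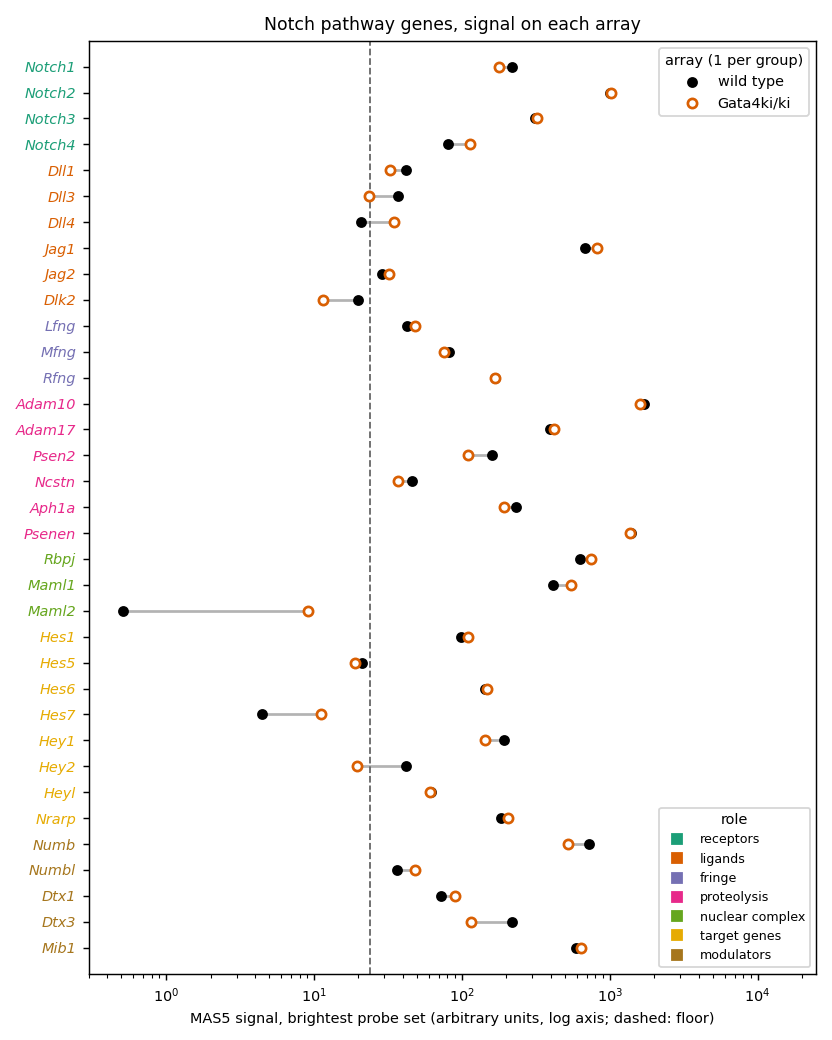
MAS5 signal of the brightest probe set of each of 35 Notch pathway genes on the wild-type array (black) and on the Gata4ki/ki array (open orange), on a log axis, with gene names coloured by role and the floor of 24.0 dashed. Most points of a gene lie close together, while Dtx3 and Hey2 are visibly lower in the mutant. Wide gaps left of the floor, as for Maml2, lie among values that were not read as differences.

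The share of genes past 1.5-fold differed with brightness, so members were also read within 3 ranges of mean signal. Under a mean signal of 100, 2 of 12 members (Hey2 and Dll3) were 1.5-fold apart, 16.7%, beside 15.9% of all measured genes of that range. Between 100 and 400 it was 1 of 10 (Dtx3), beside 3.7%. Above 400 it was 0 of 9, beside 0.982%. The dim members were thus past that fold about as often as other dim genes, and Dtx3 was the one brighter member past it. Within 1.2-fold, a limit chosen after the values were seen, lay 48.4% of the members and 73.0% of all measured genes. From the dimmest range to the brightest these shares were 33.3% against 51.2%, 50% against 76.3% and 66.7% against 91.1%. The interquartile range of the member ratios ran from -0.31 to 0.18 on the log2 scale, and that of all measured genes from -0.13 to 0.15. These are counts over genes of 1 pair of arrays and carry no test. The robust SD of the log2 ratio over probe sets above the floor on both arrays was 0.37, 0.22 and 0.13 in the 3 ranges, and 17 of the 31 members, 54.8%, had a ratio no larger than the value of their range, beside 67.6% of all measured genes.

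**Figure D2:**
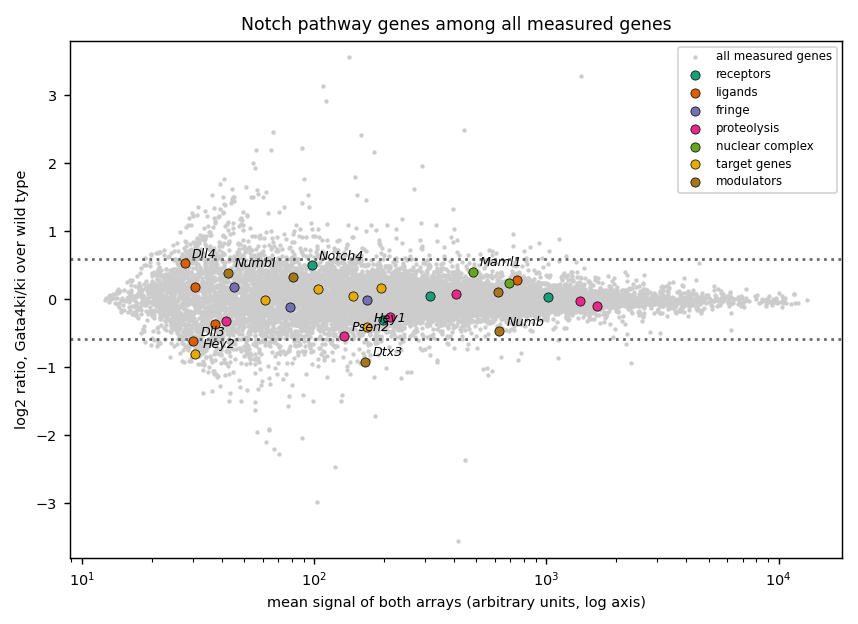
Log2 ratio of Gata4ki/ki over wild type against the mean signal of both arrays, for 12300 measured genes (grey) and the 31 measured Notch pathway genes (coloured by role), with 1.5-fold dotted. The grey cloud narrows as signal grows. Dtx3, Hey2 and Dll3 lie below the lower line, and no member lies above the upper one.

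The 4 receptors showed no shared direction. Notch1, a receptor of many tissues, had 219 in wild type against 178 in the mutant, a log2 ratio of -0.30, and -0.24 on the dimmer probe set. Notch2, the receptor best known in granulosa cells of the ovary and in the nephron, was nearly equal, with 1002 and 1022, a ratio of 0.03. Notch3, a receptor of mural cells around vessels, had 310.3 and 321, a ratio of 0.05, and 0.22 on its dimmer probe set. Notch4, known mainly from endothelium, had 81.0 and 114, a ratio of 0.50, or 1.41-fold higher. Its other probe sets, of 17.1 and 7.95 and of 10.7 and 1.22, were not above the floor, so 1 probe set carries the Notch4 value. The receptors thus spanned ratios from -0.30 to 0.50, with none at 1.5-fold.

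Of the 6 ligands, 5 were measured, and the largest ratios came from signals near the floor. Jag1, a ligand of nephron and arterial Notch signalling, had 678 in wild type and 823 in the mutant, a log2 ratio of 0.28. Both other Jag1 probe sets were under the floor on both arrays. Jag2 had 28.8 and 32.4, a ratio of 0.17, close to the floor on both. Dll1, a ligand of nephron, somite and neural progenitors, had 42.0 and 32.6, a ratio of -0.36. Dll3 had 36.9 and 23.5, with the mutant just under the floor. Dll4, the ligand of arterial and sprouting endothelium, went the other way with 20.7 and 34.6, at least 1.44-fold higher with wild type under the floor. Its second probe set, of 3.86 and 25.2, was above the floor in the mutant only and gave a bound of 0.07. Dlk2, an atypical ligand, had 2 probe sets that differed in direction below the floor, 19.9 and 11.5 on one and 9.42 and 21.3 on the other. The 5 measured ligands had a median ratio of 0.17.

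The fringe enzymes, glycosyltransferases that alter the sugars on Notch and so its choice of ligand, were close between arrays. Lfng had 42.4 and 48.2, a log2 ratio of 0.18. Mfng had 82.2 and 75.6, a ratio of -0.12. Rfng had 169 and 168 on its brightest probe set, while the dimmer one gave 60.7 and 42.2, a ratio of -0.52, so its probe sets differed by 0.51. No fringe gene was 1.5-fold apart, and their median was -0.01.

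Genes of receptor cleavage were all within 1.5-fold on their brightest probe sets, with 5 of 6 ratios below 0. Adam10, the metalloprotease of ligand-induced cleavage, had 1719 in wild type and 1597 in the mutant, a log2 ratio of -0.11. Its probe sets disagreed. The second gave 283 and 289, a ratio of 0.03, and the third 69.8 and 118, a ratio of 0.76 or 1.69-fold higher, while one more was not above the floor. The higher value thus stands on the dimmest measured probe set alone. Adam17, a related sheddase, had 397 and 420.0, a ratio of 0.08, with -0.21 and 0.10 on its other probe sets.

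The gamma-secretase subunits all had ratios below 0, of differing size. Psen2, a presenilin that can form the catalytic core, had the largest ratio of the group, with 159.9 and 109.5, -0.55 or 1.46-fold lower on its 1 measured probe set. Ncstn, which encodes nicastrin, the substrate-binding subunit, had 46.1 and 37.1, a ratio of -0.32. Aph1a, a scaffold subunit, had 232 and 193, a ratio of -0.27, with -0.12 and -0.20 on its other probe sets. Psenen, which encodes the presenilin enhancer, had 1403 and 1379, a ratio of -0.02. The 4 values ran from -0.55 to -0.02. The median of the 6 cleavage genes was -0.19, and none was 1.5-fold apart.

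Both measured genes of the nuclear complex were slightly higher in the mutant. Rbpj, the DNA-binding partner of Notch, had 631 and 748, a log2 ratio of 0.24, but its other probe sets, of 289.7 and 288.7 and of 118 and 121, gave -0.00 and 0.04. Maml1, a Mastermind coactivator, had 415 and 549.8, a ratio of 0.40 or 1.32-fold higher, and 0.21 on its second probe set. The Rbpj value therefore rests on its brightest probe set, while both probe sets of Maml1 lay above 0. Maml2, with 0.508 and 9.10, was not above the floor.

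Target genes are the usual readout of Notch activity, and here they did not shift together. RBPJ binds a short core, TGGGAA. The promoters of Hes5, Hes7, Hey2 and Nrarp are shown as the 250 bases before the RefSeq gene start (assembly GRCm38.p6). They read 5′ to 3′ on the strand of the gene, with each match to TGGGAA or its complement TTCCCA in capitals. The windows of Hes6, also a measured target, are not shown and hold no match. Hes5 is the classic RBPJ-dependent promoter, Hes7 the oscillating gene of the somite clock, Hey2 the target with the largest difference here, and Nrarp a feedback inhibitor that has no match in this window. The windows are chr4:154960673-154960922 on the plus strand for Hes5, chr11:69120203-69120452 on the plus strand for Hes7, chr10:30842784-30843033 on the minus strand for Hey2 and chr2:25180508-25180757 on the plus strand for Nrarp.
Hes5: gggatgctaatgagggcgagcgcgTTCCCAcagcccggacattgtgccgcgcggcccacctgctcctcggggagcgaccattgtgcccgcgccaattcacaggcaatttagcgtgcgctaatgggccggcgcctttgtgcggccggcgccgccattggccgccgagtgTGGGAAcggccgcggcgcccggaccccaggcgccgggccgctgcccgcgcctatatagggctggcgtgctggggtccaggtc
Hes7: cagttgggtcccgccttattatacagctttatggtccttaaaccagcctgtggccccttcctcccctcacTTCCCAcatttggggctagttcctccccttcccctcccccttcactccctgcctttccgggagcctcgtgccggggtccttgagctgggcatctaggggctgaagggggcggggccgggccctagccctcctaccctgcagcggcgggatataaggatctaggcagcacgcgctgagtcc
Hey2: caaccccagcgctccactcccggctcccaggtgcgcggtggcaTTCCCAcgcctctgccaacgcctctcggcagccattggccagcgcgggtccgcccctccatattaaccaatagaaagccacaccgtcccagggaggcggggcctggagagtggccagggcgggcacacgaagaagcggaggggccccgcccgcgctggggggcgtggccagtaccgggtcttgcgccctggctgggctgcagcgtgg
Nrarp: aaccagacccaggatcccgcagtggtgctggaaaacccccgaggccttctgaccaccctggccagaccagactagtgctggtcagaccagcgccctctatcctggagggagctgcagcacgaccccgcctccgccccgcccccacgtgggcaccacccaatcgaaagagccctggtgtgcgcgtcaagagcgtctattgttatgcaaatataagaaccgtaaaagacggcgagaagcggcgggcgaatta
The capitals of Hes5 begin 226 and 82 bases before the start, the latter on the gene's own strand. That of Hes7 begins 180 bases and that of Hey2 207 bases before it, both on the opposite strand.

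Among the 8 target genes 6 were measured, 3 with a ratio above 0 and 3 below, and the median log2 ratio was 0.01. When probe sets of a gene were summarised by their median, the ratio of Nrarp was -0.03, and 2 lay above 0 and 4 below. Hes1, a HES-family repressor and the most general Notch target, had 98.3 in wild type and 109 in the mutant, a ratio of 0.16. Nrarp, which encodes a small ankyrin protein that limits Notch signalling, had 183 and 206, a ratio of 0.17, with -0.23 on its dimmer probe set. Hes6, a HES protein that opposes HES1 and is less tied to Notch, had 144 and 149, a ratio of 0.04. These 3 genes were all within 1.2-fold.

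The HEY genes were level or lower. Hey1, a repressor active in vessels and heart, had 192 and 144, a ratio of -0.41 or 1.33-fold lower. Heyl had 62.0 and 61.3, a ratio of -0.01, and -0.19 on its second probe set. Hey2, a gene of arterial endothelium, had 41.9 and 19.5, with the mutant under the floor and 1 probe set only. Its bound was -0.80, and it reached -1.10 with the floor at the 40th percentile, or 2-fold lower, and -0.52 with a pseudocount of 32. Hes5 had 21.1 and 19.1 and Hes7 had 4.46 and 11.1, all under the floor. The Hes5 and Hes7 promoters printed above thus belong to genes without a measurable ratio here, while the Hey2 and Nrarp promoters, with 1 core and none, belong to genes whose ratios were at most -0.80 and 0.17.

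Modulators of the pathway held the largest member ratio, that of Dtx3, and a smaller one seen on both probe sets, that of Numb. Dtx3 had 217 and 115 on its 1 probe set, and its log2 ratio of -0.92 stayed between -0.92 and -0.76 over all 7 alternative settings. Changes of floor or of the choice of probe sets could not move this ratio, which rests on 1 probe set above every floor tried. Numb, an endocytic adaptor that inhibits Notch in asymmetric divisions, had 729.6 and 526, a ratio of -0.47 or 1.39-fold lower. Its second probe set, of 89.5 and 61.0, gave -0.55. Numbl, its paralogue, had 36.7 and 48.0, a ratio of 0.39 in the opposite direction near the floor. Dtx1, another Deltex protein and itself a Notch target in lymphocytes, had 72.1 and 90.5, a ratio of 0.33. Mib1, the E3 ligase that activates ligands by endocytosis, had 595 and 639.8, a ratio of 0.11, and its other probe sets gave -0.32 and -0.00. Numb is the member above a mean signal of 400 with the largest ratio, and the paralogue pairs Numb and Numbl, and Dtx3 and Dtx1, differed in direction.

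**Figure D3:**
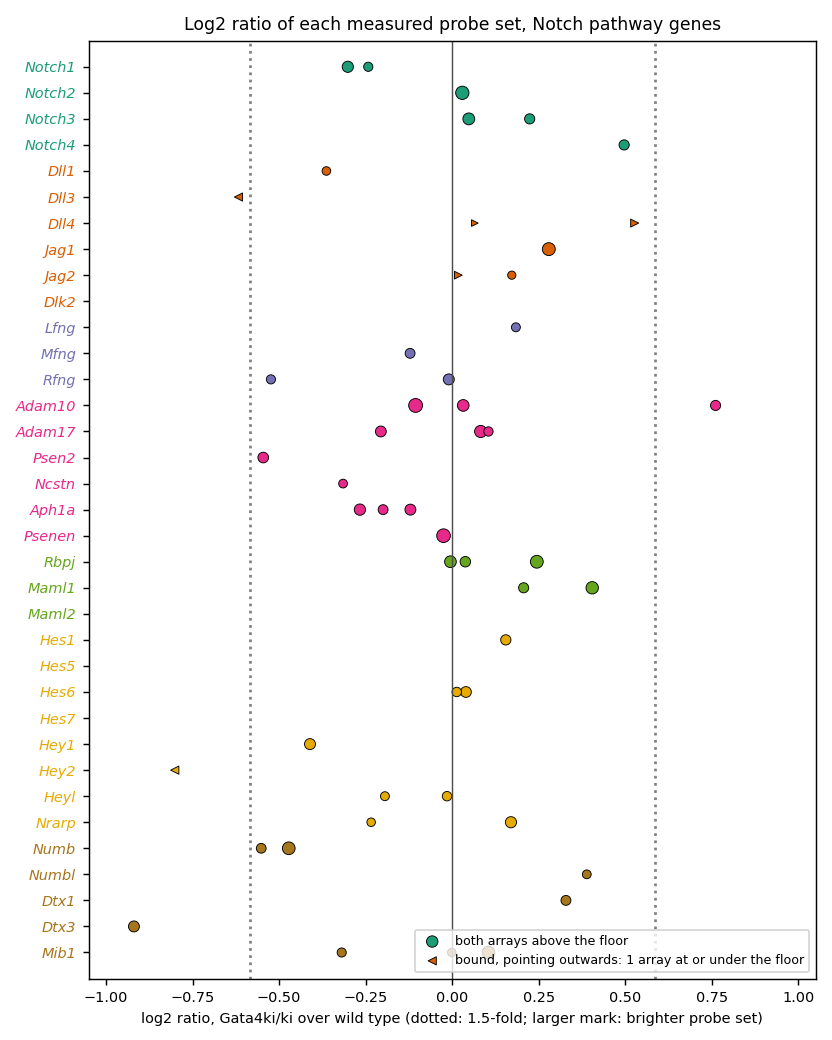
Log2 ratio of Gata4ki/ki over wild type for the 51 member probe sets above the floor on at least 1 array (circles: both arrays above the floor; triangles: bounds, except ratios of 0), coloured by role, with larger marks for brighter probe sets and 1.5-fold dotted. The 2 Numb probe sets lie together below 0, and the dimmest measured Adam10 probe set stands apart from the other two.

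Where a member had several probe sets above the floor on both arrays, they mostly pointed one way. Of 13 such members, 8 had all probe sets on the same side of 0, 61.5%, beside 45.7% of 4936 genes in general. These shares were not matched for the number of probe sets per gene or for the size of the ratios. The median spread between a member's highest and lowest probe set was 0.20, beside 0.28 for all genes, and the widest was 0.87, for Adam10. Numb (0.08), Notch1 (0.06) and Hes6 (0.03) had the closest probe sets. All probe sets were hybridised with the same RNA, so this spread is one of probes, not of embryos.

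Genes of the same pathway outside the 36 were read from a further list of 48, of which 43 were analysed here and 39 measured. Of these 39, 2 were at least 1.5-fold higher and none lower, 5.13%, beside the background of 6.65%, and the median log2 ratio was 0.02. Fbxw7, which encodes the ubiquitin ligase subunit that sends the Notch intracellular domain and other proteins to degradation, had 269 in wild type and 506 in the mutant, a ratio of 0.91 or 1.88-fold higher. Its second probe set, of 161 and 312, gave 0.96. Mfap5, a microfibril protein that can bind Notch and Jagged, had 24.5 and 47.3, a ratio of 0.95, with wild type just above the floor. The Fbxw7 ratio was thus of like size on both probe sets and the Mfap5 ratio came from a dim one.

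Other genes of that list did not reach 1.5-fold at this floor. Mib2, the paralogue of Mib1, had 135 and 89.9, a ratio of -0.58, and Epn1, an endocytic adaptor for ligands, 142 and 98.4, a ratio of -0.52. The acetyltransferase Ep300, a coactivator of the Notch complex, had 455 and 647, a ratio of 0.51, and the corepressor Spen 93.5 and 132, a ratio of 0.50. Dtx3l, a Deltex relative, had 46.4 and 62.9, a ratio of 0.44. Cntn1, a neural adhesion ligand, had 19.6 and 32.4, at least 0.43, and was past 1.5-fold with a floor at the 40th percentile. Another Cntn1 probe set, of 27.0 and 21.9, went the other way with at most -0.17. Tspan5 and Tspan17, tetraspanins that escort ADAM10, had 213 and 164, a ratio of -0.38, and 24.8 and 31.3, a ratio of 0.33. The other Tspan17 probe set, of 30.5 and 11.8, was opposed, at most -0.34. Kat2b, an acetyltransferase, had 289.5 and 244, a ratio of -0.25. The ratio of Crebbp was 0.19 on its brightest probe set, and 0.15 and -0.47 on its dimmer measured ones. The 3 groups of this list, for ligands and processing, ubiquitin and trafficking, and nuclear cofactors and targets, had medians of 0.07, -0.01 and 0.01.

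Several members are known from particular cell types, and the markers of those cells were read on the same arrays. In bulk tissue, fewer cells of a type and less RNA per cell cannot be told apart. All 14 endothelial markers were measured, and their signals summed to 3481 in wild type against 3029 in the mutant. Of them, 11 had a ratio below 0, beside 5980 of the 12300 genes measured in all. The median was -0.18, and 1 marker was 1.5-fold lower (Sox17, 461 and 291). Kdr, Tie1 and Cldn5 lay above 0, at 0.29, 0.16 and 0.03, and Robo4 and Pecam1 just below, at -0.04 and -0.07. Sox18, Tek and Cdh5 had ratios of -0.57, -0.44 and -0.38. Hey2 and Hey1 lay on the same side as these, and Notch4 and Dll4 on the other. The part of endothelial content in the 4 values was not tested.

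A ratio below 0 was found for 3 of 4 measured arterial, 5 of 6 mural and 4 of 6 nephron markers. Over all measured genes it was 5980 of 12300. Some of these marker ratios were close to 0, such as Rgs5 and Abcc9, both at -0.02, and Gata3 at -0.08. Of 6 arterial markers 4 were measured, Gja5 and Bmx being under the floor, with a median ratio of -0.21. The signals of all 6 summed to 1909 and 1906, mostly from Efnb2 (957 and 1021) and Nrp1 (734 and 720). Unc5b, Gja4, Efnb2 and Nrp1 had ratios of -0.39, -0.39, 0.09 and -0.03. The 6 mural markers summed to 2526 and 2825, with a median of -0.08, beside a Notch3 ratio of 0.05. Cspg4 was at -0.69, or 1.61-fold lower. Pdgfrb, the 1 mural marker above 0, had 1441 and 1804, a ratio of 0.32. The 6 measured nephron tubule markers summed to 2268 and 2112, with a median of -0.11 and none 1.5-fold apart. Cdh6, Emx2, Lhx1 and Cdh16 were at 0.43, -0.23, 0.21 and -0.19, beside ratios of 0.28 for Jag1 and -0.36 for Dll1. Neural markers were scarce, with 3 of 6 above the floor, Stmn2, Elavl4 and Tubb3 at 0.14, at least 0.28 and at most -0.13, and Elavl3, Neurog2 and Sox10 under it.

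Larger ratios were seen among the markers of other cell groups. Of 8 macrophage markers 5 were 1.5-fold higher in the mutant, with sums of 1435 and 2222 and a median of 0.69 (Ptprc 0.92, Fcer1g 0.87, Csf1r 0.77, Adgre1 0.72 and Mrc1 0.65), while Tyrobp was at 0.58, Lyz2 was level at 165 on both arrays and Cx3cr1 was at -0.39. Of 6 erythroid markers 4 were 2-fold higher (Hemgn at least 2.19, Klf1 1.66, Slc4a1 1.42 and Alas2 1.03), with a median of 1.22, while their sums of 13324 and 14273, which the globins dominate, were close. Of 4 measured steroidogenic markers 3 were at least 2-fold higher, with sums of 110.0 and 636 (Cyp17a1 at least 3.14, Hsd3b1 2.17, Star at least 1.93 and Cyp11a1 at least 0.55). Of 8 supporting and early gonad markers 2 were 2-fold lower, Fst at -3.55 and Foxl2 at -2.05, while Nr5a1 and Rspo1 were both at 0.34, and their sums were 5832 and 4802. Germ cell markers summed to 2097 and 1975, with Dnd1, Kit, Dazl and Ddx4 at -0.71, 0.51, -0.31 and -0.21. On the arrays that hold these differences, the 6 measured Notch target genes ranged from at most -0.80, the bound of Hey2, to 0.17. The dependence of these target genes on any of these cell groups was not tested.

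**Figure D4:**
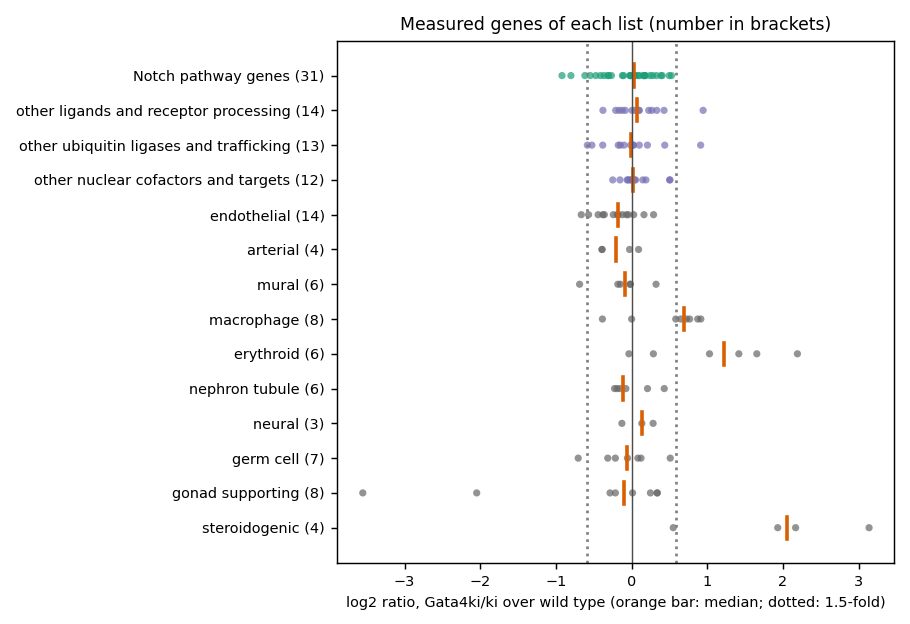
Log2 ratio of Gata4ki/ki over wild type for each measured gene (points) of the Notch pathway genes, 3 groups of other pathway genes and 10 cell type marker lists, with the median of each list in orange and 1.5-fold dotted. The Notch medians lie near 0, while macrophage, erythroid and steroidogenic medians lie above 0.5 and Fst and Foxl2 lie far below 0.

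The members' promoters were described by the letters they hold. RefSeq promoter windows were found for 30 of the 36 genes, 39 windows in all, and not used for Hes1, Hey1, Heyl, Mfng, Dtx3 and Mib1. The RBPJ core TGGGAA, on either strand, occurred in 10 of the 39 windows, 25.6%, beside 21.6% of all 32851 windows of the same length. Members with a match were Lfng, Maml2, Maml3, Rbpj, Psen2, Psenen, Hes5, Hes7 and Hey2, and Lfng, Hes5 and 1 window of Rbpj held 2 matches. The windows of Rbpj overlap, so that 1 match is counted in both. A GATA core, GATAA on either strand, occurred in 5 windows, 12.8%, beside 22.6% of all windows. The N box CACNAG occurred in 35.9% of member windows and 36.7% of all, and the E box CACGTG in 10.3% and 6.02%. The member windows had a median GC content of 63.2%, beside 52.4% of all windows, and its part in these shares was not tested. Among the member windows 1 E box match overlapped an RBPJ core, in Lfng, and no GATAA or N box match did. A match of letters is not a binding site.

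**Figure D5:**
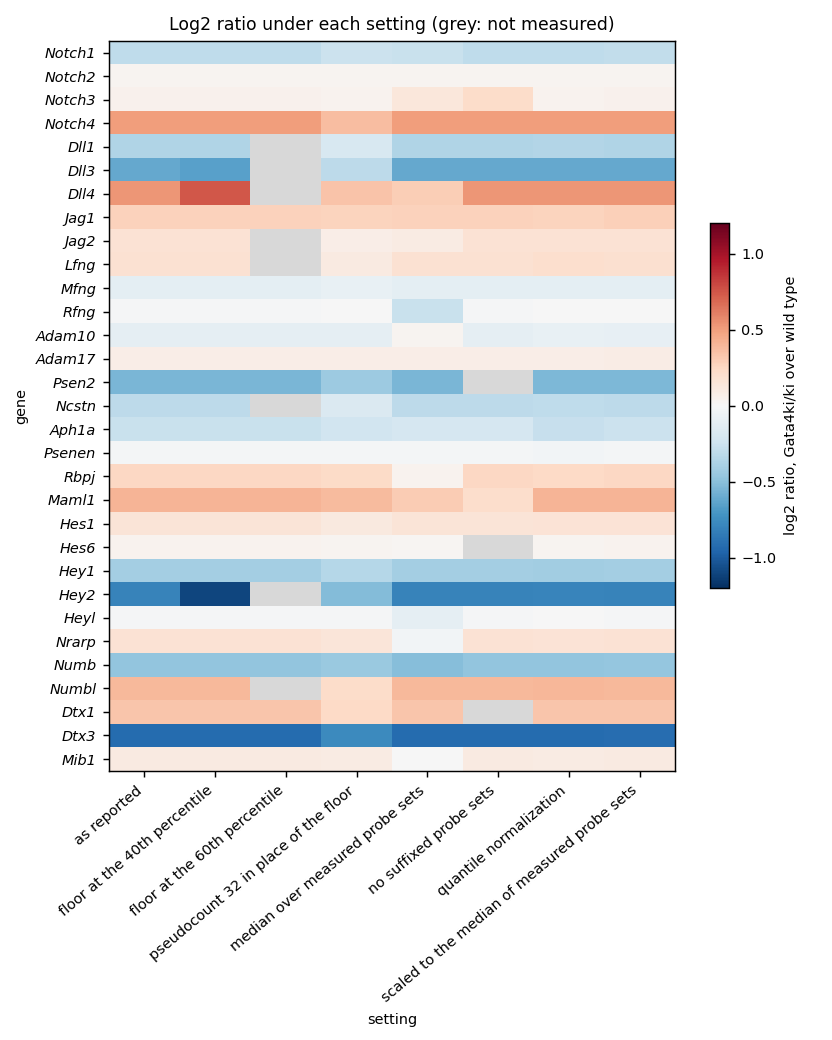
Log2 ratio of Gata4ki/ki over wild type for the 31 measured members under the setting as reported and 7 alternatives (colour; grey where a gene was not measured). Dtx3 stays low in every column, while Hey2, Dll3 and Dll4 deepen with a lower floor or are lost with a higher one.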

How the data were processed

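RNA of XX gonad-mesonephros complexes was hybridised as biotin-labelled cRNA to 1 array per group, per the labels' protocols. The deposited values are linear signal intensities, 1 per probe set, and the submitters' processing notes name MAS5 without a version. Each array had been scaled: its mean, trimmed by 2% at either end, was 150.0. Above the floor were 22566 (wild type) and 22534 (mutant) of 45101 probe sets. The number of arrays limits the precision.

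Probe sets were named through the platform annotation, and control probe sets were left out. All 69 member probe sets matched RefSeq gene numbers and no symbol changed. Values were used as deposited, lower values were set to a floor at the 50th percentile (24.0), and a gene was represented by its brightest probe set. Log2 ratios are mutant minus wild type. A ratio with 1 array at or under the floor is a bound, written as at least or at most.

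Genes at least 1.5-fold or 2-fold apart were counted beside all measured genes, with no test. The script was tested on simulated data. The members and lists were chosen with earlier results of these data known. Every member is named; all measured probe sets are given for members 1.5-fold apart or with opposed probe sets, and for each other list up to 4 genes with the largest ratios. Tried alternatives were floors at the 40th and 60th percentile, a pseudocount of 32, the median over probe sets, no suffixed probe sets, quantile normalization and median scaling. Python 3.11.15, numpy 2.4.6 and pandas 2.3.3 were used.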

Additional observations from a re-analysis of the deposited data

How the results depend on the processing

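Of 206 member ratios under 7 alternatives, 202 moved by less than the robust SD of their signal range. Many of them could not move, since a floor does not alter ratios of signals above it and many members had 1 measured probe set. Members not measured under a setting, such as Hey2, Dll3 and Dll4 with the floor at the 60th percentile, are not among the 206. None of the 3 members 1.5-fold apart changed sign where measured. With the median over probe sets 3 smaller ratios did, Adam10 (-0.11 to 0.03), Nrarp (0.17 to -0.03) and Mib1 (0.11 to -0.00). In that setting Rfng and Rbpj moved to -0.27 and 0.04, and without suffixed probe sets Maml1 moved to 0.21. The count of members 1.5-fold apart was 5 with the floor at the 40th percentile (Dlk2 and Dll4 higher, Dll3, Dtx3 and Hey2 lower), 1 with the floor at the 60th (Dtx3) and 1 with the pseudocount (Dtx3). It was 3 in the other 4 alternatives. A higher floor measured fewer members, 23 in place of 31. The count at 2-fold was 1 at the 40th percentile (Hey2) and 0 otherwise. Among the other pathway genes the count of 2 became 1 with the floor at the 60th percentile and 1 with the pseudocount, Fbxw7 both times. It became 3 with the floor at the 40th (with Cntn1) and 3 without suffixed probe sets (with Dlk1). The members' median log2 ratio ranged from -0.00 to 0.03, and no scaling moved the median of all genes by more than 0.1. No paired analysis was possible because each group holds 1 array. Signals near the floor limit Dll1, Dll3, Dll4, Jag2, Hey2, Lfng, Ncstn and Numbl.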

Other observations

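Agreement between probe sets singled out 1 gene of the wider pathway. Of 4936 genes with at least 2 probe sets above the floor on both arrays, 24 were higher in the mutant by 1.5-fold or more on every one of them and 15 lower by as much, together 0.79%. None of the 13 members with several such probe sets was among these 39 genes. Of the 17 other pathway genes with several, 1 was, namely Fbxw7, whose ratios were 0.91 and 0.96. This count was made after the Fbxw7 values had been seen, it comes from 1 array per group, and no test bears on it.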
